A study of Mus musculus with 12 samples.

Results

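The 10 genes described here are 4 WNT ligands, Wnt4, Wnt7b, Wnt9b and Wnt10a, and 6 genes that act on the WNT signal inside or at the surface of the receiving cell, Axin2, Nkd1, Znrf3, Rnf43, Lef1 and Tcf7. They were taken by gene symbol from the gene table of mpkCCDc11, an epithelial line from the cortical collecting duct of the mouse kidney, and all 10 were found among its 45777 genes. Messenger RNA was sequenced from 12 libraries in 4 groups of 3. The groups were control siRNA with vehicle, control siRNA with dDAVP, TAZ siRNA with vehicle and TAZ siRNA with dDAVP. The study asked how TAZ, the Hippo pathway coactivator encoded by Wwtr1, bears on aquaporin-2, the water channel that vasopressin controls in these cells.

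In every group the cells carried a transfected siRNA, were grown on permeable filters and were kept without serum and hormones before treatment. The labels give the genotype of the control siRNA groups as WT and that of the TAZ siRNA groups as TAZ knockdown. dDAVP, a synthetic vasopressin that stimulates the V2 receptor, was given at 1e-09 M on the basolateral side. The labels list several exposure times for the series and do not tie one to these libraries, so the time behind each dDAVP value is not known. All libraries came from 1 cell line in culture, with no other cell type of the kidney beside it. Nothing in the labels tells whether 3 libraries of 1 group stem from separate cultures, so the p-values measure only how these libraries vary, and that variation may be technical.

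WNT ligands are lipid-modified secreted proteins that bind Frizzled receptors together with LRP5 or LRP6. In the canonical branch this binding stops a destruction complex built on axin and APC from degrading beta-catenin, which then enters the nucleus and activates genes together with TCF/LEF factors. Axin2, Nkd1, Znrf3, Rnf43, Lef1 and Tcf7 are commonly raised by that signal, and the products of the first 4 restrain it. In the developing kidney, Wnt9b from the ureteric bud and Wnt4 in the nephron progenitors drive tubule formation, and Wnt7b from the collecting duct epithelium directs growth of the medulla.

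Library totals ran from 45095331 to 61725339 estimated counts. Levels are given as CPM (counts scaled to the library total, with TMM factors), and n is 3 libraries per group. A count of 3 in 1 library equals 0.0486 to 0.0665 CPM. Changes are log2 fold changes ± SE from edgeR's quasi-likelihood test, with Benjamini-Hochberg adjusted p-values over 15932 tested genes, and a call needed an adjusted p under 0.05. The targeted gene Wwtr1 (chromosome 3, 57455644 to 57575910, mm10) lay between 161 and 186 CPM in the 6 control siRNA libraries and between 108 and 127 CPM in the 6 TAZ siRNA libraries, a partial lowering of -0.63 ± 0.05 with vehicle and -0.54 ± 0.05 with dDAVP. Aqp2 (chromosome 15, 99579056 to 99584545) was at 0.337 to 0.343 CPM with control siRNA and vehicle, rising to 29.3 to 44.8 CPM under dDAVP. In the TAZ siRNA libraries it was at 0 to 0.145 CPM under vehicle and 9.11 to 13.7 CPM under dDAVP. The Aqp2 change with TAZ siRNA was -1.66 with dDAVP (adjusted p = 0.000555). With vehicle, at few counts, it was -2.75 and not called (adjusted p = 0.152). DESeq2 (0.000148) and edgeR on the compared groups alone (0.0486) did call it.

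Of the 10 genes, 8 passed the low-count filter and were tested, and Axin2 and Nkd1 had 0 counts in all 12 libraries. With control siRNA, dDAVP raised none and lowered 2 of the 8, Wnt7b and Rnf43, where 19.2% of all tested genes were called. It was 1 of the 8, Wnt7b, without control vehicle replicate 1 or 3 or control dDAVP replicate 2 or 3. Leaving out 1 library, 2103 to 2685 of all tested genes were called, against 3058. With TAZ siRNA, dDAVP changed 0 of the 8, where 10.8% of all tested genes were called. The edgeR test gave 1 of the 8 an unadjusted p under 0.05 there, DESeq2 called 1 (Wnt7b) and limma called 0. TAZ siRNA raised Wnt7b and Wnt10a with vehicle and lowered Wnt9b and Rnf43, 4 of the 8 against 6.3% of all tested genes. This count was 1 without control vehicle replicate 1, TAZ siRNA vehicle replicate 2 or TAZ siRNA vehicle replicate 3, and 2 without control vehicle replicate 3. Without these libraries, in the order given, all tested genes gave 504, 410, 511 and 578 calls, against 1004. TAZ siRNA with dDAVP raised Wnt7b and Wnt10a and lowered none, 2 of the 8 against 10.7%. The median change of the 8 was -0.18 for dDAVP with control siRNA, -0.03 for dDAVP with TAZ siRNA, -0.11 for TAZ siRNA with vehicle and 0.11 for TAZ siRNA with dDAVP. The medians of all tested genes were -0.00125, -0.000854, 0.00174 and 0.00252 in the same order. The median of the 8 rested on single libraries in 3 comparisons. It was 0.0055 for dDAVP with TAZ siRNA without TAZ siRNA dDAVP replicate 3 and -0.0019 without TAZ siRNA vehicle replicate 1. For TAZ siRNA with vehicle it was -0.028 without control vehicle replicate 2, -0.063 without control vehicle replicate 1 and -0.18 without 3. For TAZ siRNA with dDAVP it was -0.0058 without TAZ siRNA dDAVP replicate 1, 0.047 without 2, 0.18 without 3 and 0.061 without control dDAVP replicate 3. The comparisons share groups, so their values are given side by side and are not independent. The 10 genes were chosen with earlier results of these data known, so their shares beside those of all genes are descriptions only.

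**Figure D1:**
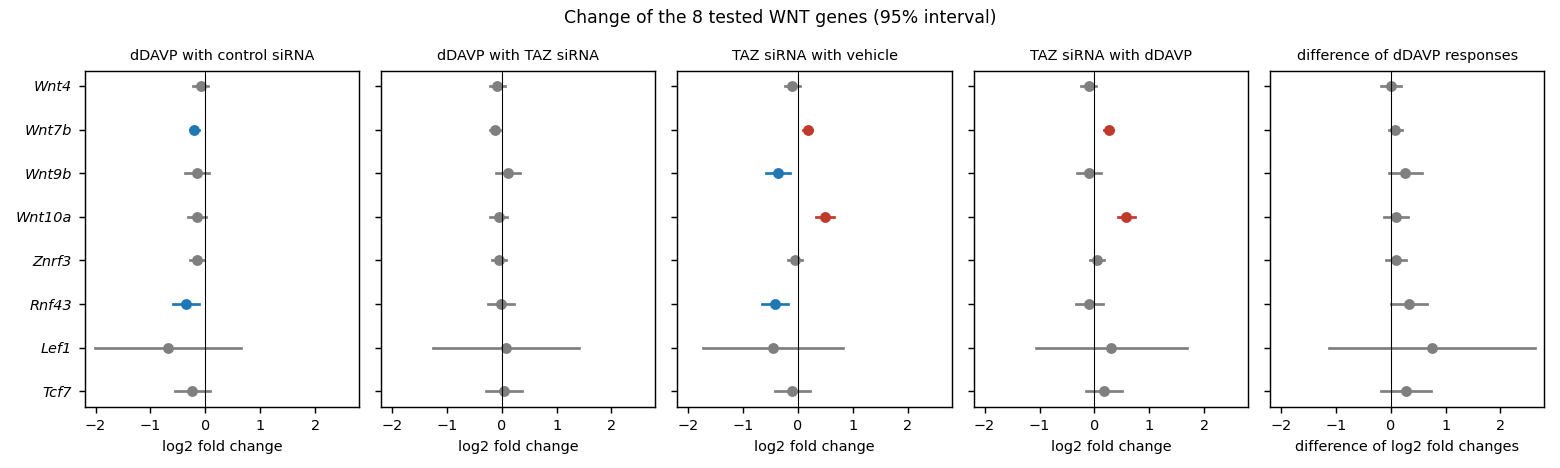
Log2 fold change of the 8 tested genes (x axis) in the 4 comparisons and in the difference of the dDAVP responses, with 95% intervals as bars. Called genes are red where higher and blue where lower, and the others are grey. Wnt10a lies to the right of 0 in both TAZ siRNA panels, and no gene is called in the panel of differences.

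Wnt7b (gene identifier 22422, chromosome 15, 85535437 to 85581821, mm10) was the most abundant ligand and moved in opposite directions with dDAVP and with TAZ siRNA. With control siRNA it measured 365, 368 and 366 CPM with vehicle and 320.5, 317 and 317 CPM with dDAVP. With TAZ siRNA it measured 385, 423 and 434 CPM with vehicle and 397, 367 and 378 CPM with dDAVP. All 3 control dDAVP libraries lay below the control vehicle libraries, and all 3 TAZ siRNA vehicle libraries lay above the control vehicle libraries. The change with dDAVP was -0.20 ± 0.04 with control siRNA (adjusted p = 0.00128), a fall to 0.868 of the vehicle level. With TAZ siRNA it was -0.12 ± 0.04 (adjusted p = 0.0564), and the group ranges overlapped. That value passed the threshold with DESeq2 (0.0241), with no low-count filter (0.0289), without TAZ siRNA vehicle replicate 1 (0.00231) and without TAZ siRNA dDAVP replicate 1 (0.0306), within 0.00231 to 0.179 over its 12 alternatives.

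TAZ siRNA raised Wnt7b by 0.18 ± 0.04 with vehicle (adjusted p = 0.0118, 1.13-fold) and by 0.26 ± 0.04 with dDAVP (adjusted p = 0.000354, 1.20-fold). In both treatments the 3 TAZ siRNA libraries lay above the 3 control siRNA libraries. The call with vehicle was lost without control vehicle replicate 1 (0.0558), without TAZ siRNA vehicle replicate 2 (0.0850) and without TAZ siRNA vehicle replicate 3 (0.0778), within 0.000688 to 0.0850 over 12 alternatives. The calls for dDAVP with control siRNA and for TAZ siRNA with dDAVP held in all alternatives run. Most Wnt7b counts, 82.9% to 95.9% per library, were assigned to 1 of its 3 transcript models, NM_009528. The first 680 bases of the gene's span are shared with the long noncoding RNA AU022754, which had 132 to 259 counts per library.

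Wnt10a (gene identifier 22409, chromosome 1, 74792019 to 74804176) encodes a ligand best known from skin, hair and tooth development. It measured 28.7, 27.6 and 27.0 CPM with control siRNA and vehicle and 23.5, 25.6 and 25.9 CPM with control siRNA and dDAVP. It measured 34.0, 41.7 and 41.2 CPM with TAZ siRNA and vehicle and 38.0, 33.9 and 40.5 CPM with TAZ siRNA and dDAVP. All 6 TAZ siRNA libraries lay above all 6 control siRNA libraries. TAZ siRNA raised it by 0.49 ± 0.08 with vehicle (adjusted p = 0.000975, 1.40-fold) and by 0.58 ± 0.08 with dDAVP (adjusted p = 8.6e-05, 1.498-fold), and both calls held in all alternatives run. These were the largest called changes among the 10 genes. The change with dDAVP did not pass the test with control siRNA, -0.15 ± 0.08 (adjusted p = 0.204), although the ranges did not overlap, or with TAZ siRNA, -0.06 ± 0.07 (adjusted p = 0.724). Wnt10a has a single transcript model here, and its span overlaps the long noncoding RNA Gm32099, with 5 to 29 counts per library.

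Wnt9b (gene identifier 22412, chromosome 11, 103727362 to 103775272), the ureteric bud ligand, was low. It measured 7.67, 7.79 and 8.12 CPM with control siRNA and vehicle and 8.12, 7.09 and 6.04 CPM with control siRNA and dDAVP. It measured 5.87, 6.59 and 5.79 CPM with TAZ siRNA and vehicle and 6.24, 6.46 and 7.17 CPM with TAZ siRNA and dDAVP. With vehicle the TAZ siRNA libraries lay below the control libraries, and the groups overlapped in the other 3 comparisons. TAZ siRNA lowered it with vehicle by -0.37 ± 0.10 (adjusted p = 0.0387, 0.774-fold). That call was lost when any of the 6 libraries was left out: without control vehicle replicate 1 (0.0929), 2 (0.0838) or 3 (0.1197), and without TAZ siRNA vehicle replicate 1 (0.0748), 2 (0.0612) or 3 (0.139), within 0.0148 to 0.139 over 12 alternatives. It was also lost with the replicate number as a block (0.0535).

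The other Wnt9b values were -0.15 ± 0.10 for dDAVP with control siRNA (adjusted p = 0.358), 0.12 ± 0.10 for dDAVP with TAZ siRNA (0.542) and -0.10 ± 0.10 for TAZ siRNA with dDAVP (0.600). Its counts were divided unevenly between its 2 transcript models. The longer model XM_030245931 held all 304 counts of TAZ siRNA dDAVP replicate 2, 113 of those of control dDAVP replicate 3 and 4 in control dDAVP replicate 2, and had 0 counts in the other 9 libraries. The first 1098 bases of that model's span lie within the span of Wnt3, another ligand, which had 0 counts in all libraries.

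Wnt4 (gene identifier 22417, chromosome 4, 137277635 to 137299501), the nephron progenitor ligand, gave no call in any comparison. It measured 36.3, 32.8 and 37.8 CPM with control siRNA and vehicle and 34.3, 33.5 and 33.1 CPM with control siRNA and dDAVP. It measured 35.3, 31.8 and 32.4 CPM with TAZ siRNA and vehicle and 31.0, 34.0 and 29.1 CPM with TAZ siRNA and dDAVP. The groups overlapped in all 4 comparisons. The 4 changes lay between -0.11 and -0.08, and their 95% intervals between them ran from -0.24 to 0.05. Their adjusted p-values ran from 0.357 to 0.486.

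**Figure D2:**
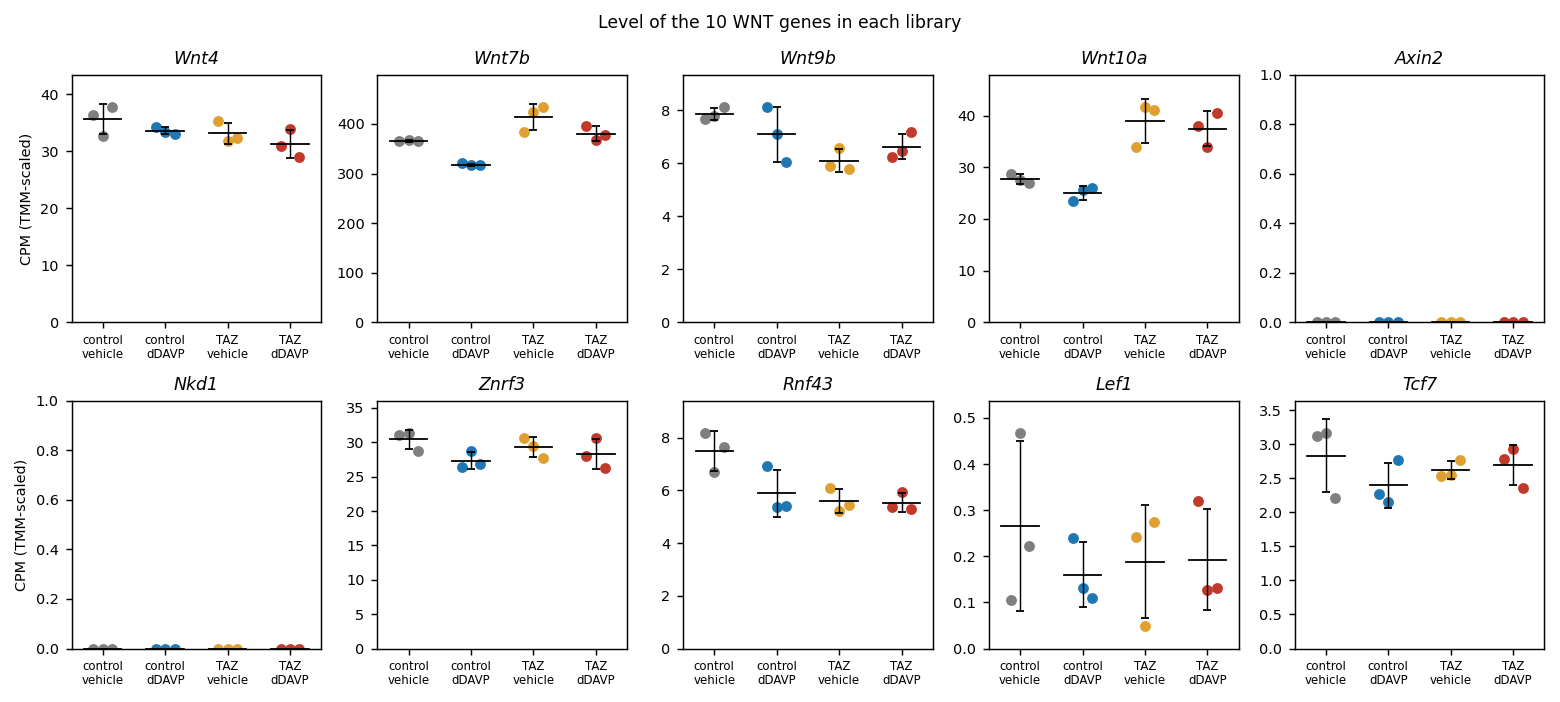
Level of each of the 10 genes in CPM after TMM scaling (y axis, linear from 0, scale differing between panels) in the 4 groups of 3 libraries. Each point is 1 library, the horizontal line the group mean and the bar 1 SD. The TAZ siRNA points of Wnt10a lie above the control siRNA points in both treatments, and Axin2 and Nkd1 lie at 0 throughout.

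For levels between genes the deposited FPKM, which are scaled to transcript length and library total, were used. Of 19 WNT ligand genes, 13 had a count in some library, and Wnt2, Wnt3, Wnt3a, Wnt5a, Wnt8a and Wnt11 had none. With control siRNA and vehicle, Wnt7b stood at 99.98 ± 0.67 FPKM (SD, n = 3), far above Wnt10a at 13.1 ± 0.36, Wnt7a at 11.99 ± 0.56, Wnt4 at 8.61 ± 0.65 and Wnt9a at 4.92 ± 0.39. Wnt9b followed at 1.61 ± 0.06, Wnt6 at 1.36 ± 0.04 and Wnt10b at 0.323 ± 0.089. In that group Wnt10a (12.8 to 13.5 FPKM) and Wnt7a (11.4 to 12.5 FPKM) were neighbours whose libraries did not overlap but whose means lay close together. With dDAVP the ranges of Wnt7a (8.22 to 9.05 FPKM) and Wnt4 (7.97 to 8.28 FPKM) overlapped in the control siRNA libraries. Wnt7b stayed first in each group, at 86.5 ± 0.89 FPKM with control siRNA and dDAVP, 113.8 ± 7.11 with TAZ siRNA and vehicle and 103.1 ± 3.69 with TAZ siRNA and dDAVP. Wls, the carrier that takes WNT proteins to the cell surface, was at 103.8 FPKM with control siRNA and vehicle.

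**Figure D3:**
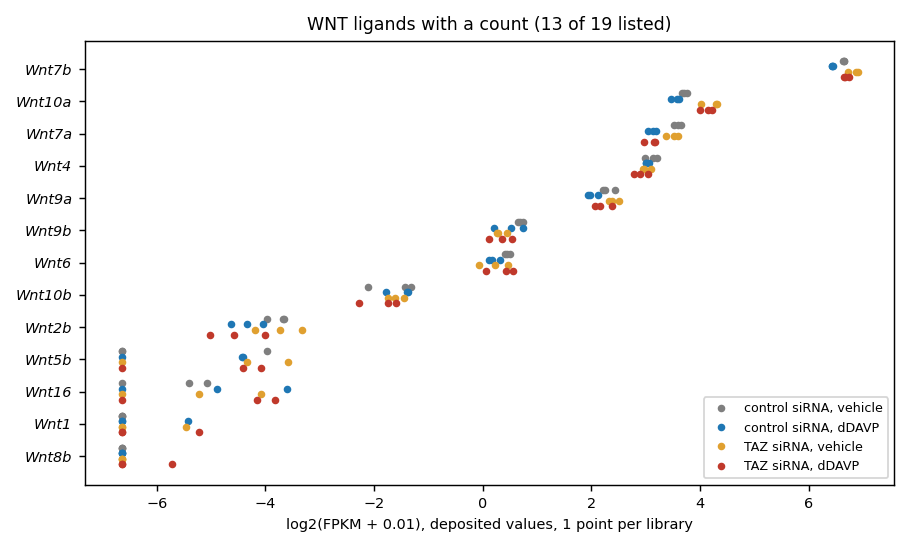
Deposited FPKM of the 13 WNT ligand genes with a count, as log2(FPKM + 0.01) on the x axis, 1 point per library and 1 colour per group. Wnt7b stands apart at the top, and points at the left edge are libraries in which the gene is listed at 0.

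Rnf43 and Znrf3 encode membrane ubiquitin ligases that remove Frizzled receptors from the cell surface, and R-spondins bound to LGR receptors take these ligases away. Rnf43 (gene identifier 207742, chromosome 11, 87663087 to 87735539) measured 8.17, 6.69 and 7.62 CPM with control siRNA and vehicle and 6.92, 5.36 and 5.39 CPM with control siRNA and dDAVP. It measured 6.10, 5.22 and 5.45 CPM with TAZ siRNA and vehicle and 5.36, 5.95 and 5.29 CPM with TAZ siRNA and dDAVP. The control vehicle group was the highest, and its replicate 2 lay below control dDAVP replicate 1. Rnf43 fell with dDAVP under control siRNA, -0.35 ± 0.11 (adjusted p = 0.0347), and with TAZ siRNA under vehicle, -0.42 ± 0.11 (adjusted p = 0.0296). Neither dDAVP with TAZ siRNA, -0.02 ± 0.11 (adjusted p = 0.956), nor TAZ siRNA with dDAVP, -0.09 ± 0.11 (adjusted p = 0.676), passed the test.

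Both Rnf43 calls were lost when counts of 1 of its 2 transcript models, which start at different places, were left out. The gene's count is the sum over both models. The model that starts at 87699897, NM_001363437, had 156 counts in control vehicle replicate 1, 44 in replicate 3 and 0 in replicate 2, and 0 in the other 9 libraries. The model that starts at 87663087, NM_172448, had 305, 315 and 400 counts in the control vehicle libraries and 403, 326 and 296 with control siRNA and dDAVP. It had 378, 321 and 338 counts with TAZ siRNA and vehicle and 319, 280 and 240 with TAZ siRNA and dDAVP. By NM_172448 alone, an alternative chosen after seeing the data, the change with dDAVP under control siRNA was -0.10 ± 0.12 (adjusted p = 0.630). That with TAZ siRNA under vehicle was -0.18 ± 0.12 (adjusted p = 0.448). NM_001363437 had counts only in the control vehicle group, so leaving them out could only lower that group in both comparisons. That this weakened both changes was therefore fixed in advance. The split between models is an estimate, so NM_172448 alone may undercount the gene. The first call was also lost without control vehicle replicate 1 (0.153) or 3 (0.0885) or control dDAVP replicate 2 (0.148) or 3 (0.141), within 0.00625 to 0.630 over 13 alternatives. The second was lost without control vehicle replicate 1 (0.154) or 3 (0.0873) or TAZ siRNA vehicle replicate 2 (0.138) or 3 (0.101), within 0.00914 to 0.448. The later start lies inside the span of the long noncoding RNA 1110028F11Rik (87699524 to 87705327), which had 0 to 5 counts per library.

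The 250 bases before each Rnf43 start are shown because the calls were not made without the counts of the model with the later start. They are RefSeq sequences of GRCm38.p6 (mm10), plus strand, at chr11:87662837-87663086 and chr11:87699647-87699896. No letters are in capitals, since none of the 5 motifs searched was found in either window.
Rnf43, start of NM_172448: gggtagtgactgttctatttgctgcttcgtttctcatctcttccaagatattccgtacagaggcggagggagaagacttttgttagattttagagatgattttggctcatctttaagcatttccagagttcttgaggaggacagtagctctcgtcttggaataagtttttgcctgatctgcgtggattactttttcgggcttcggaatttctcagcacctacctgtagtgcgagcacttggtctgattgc
Rnf43, start of NM_001363437: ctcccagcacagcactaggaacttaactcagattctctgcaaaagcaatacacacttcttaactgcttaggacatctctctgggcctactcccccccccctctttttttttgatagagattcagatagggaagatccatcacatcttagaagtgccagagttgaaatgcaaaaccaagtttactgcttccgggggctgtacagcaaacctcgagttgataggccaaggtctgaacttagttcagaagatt
The motifs were the TCF/LEF core CTTTGAT and its shorter form CTTTGA, the TEAD core GGAATG, and the cAMP response element TGACGTCA and its shorter form TGACG, each searched on both strands of the 300 bases from 250 before to 50 after a start. The longer forms contain the shorter ones. Of 32851 promoters of that length, 3.73% held CTTTGAT, 16% held CTTTGA, 14.7% held GGAATG, 1.79% held TGACGTCA and 20.8% held TGACG. The promoter table had 12 windows for 7 of the 10 genes. Wnt7b, Wnt10a and Znrf3 had none.

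**Figure D4:**
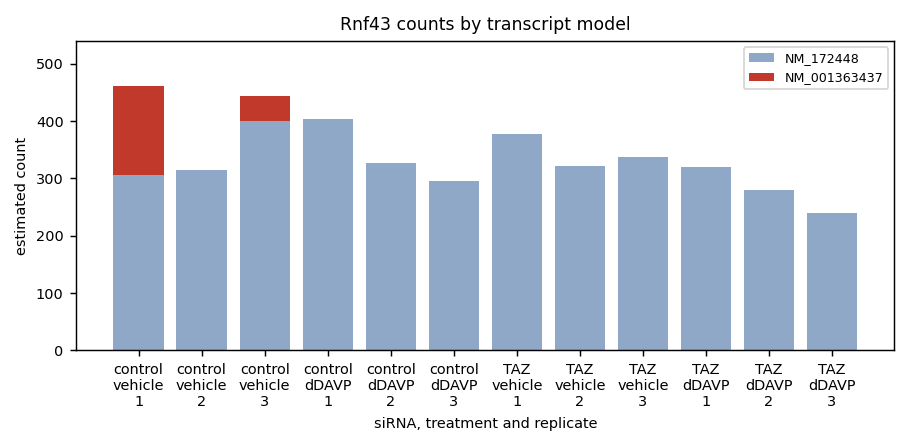
Estimated counts of Rnf43 (y axis, linear from 0) in each of the 12 libraries, stacked by transcript model. The model NM_001363437, in red, has counts in control vehicle replicates 1 and 3 and in no other library.

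Znrf3 (gene identifier 407821, chromosome 11, 5276329 to 5444847) was the more abundant ligase, at 4.02 ± 0.18 FPKM (SD, n = 3) with control siRNA and vehicle where Rnf43 was at 1.64 ± 0.21. It measured 31.1, 31.3 and 28.8 CPM with control siRNA and vehicle and 26.4, 28.7 and 26.9 CPM with control siRNA and dDAVP. It measured 30.7, 29.5 and 27.7 CPM with TAZ siRNA and vehicle and 28.1, 30.6 and 26.3 CPM with TAZ siRNA and dDAVP. The control dDAVP libraries lay below the control vehicle libraries by a narrow margin, and all other comparisons overlapped. The change with dDAVP under control siRNA was -0.15 ± 0.06 and did not pass the test (adjusted p = 0.0934). The other 3 changes lay between -0.05 and 0.05, with adjusted p-values of 0.669 to 0.694. Of the partners of the ligases, Lgr4 was at 47.2 ± 1.52 FPKM with control siRNA and vehicle, Lgr6 was at 4.70 ± 0.16, Lgr5 had 4 counts in all 12 libraries together, and the 4 R-spondin genes had 0 counts.

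Axin2, a scaffold of the destruction complex and the most widely used readout of canonical WNT signalling, had 0 counts in each of the 12 libraries (gene identifier 12006, chromosome 11, 108917828 to 108950783, 6 transcript models). Nkd1, which binds dishevelled and dampens the signal, also had 0 counts in each library (gene identifier 93960, chromosome 8, 88521342 to 88594887, 3 transcript models). A count of 0 of 673286600 over all libraries allows a level of up to 0.00446 CPM, counting error only. No fold change is given for either gene. In the same libraries 18 genes that all cells use were never at 0 (lowest count 1562), and Axin1, the paralog of Axin2, was at 26.3 FPKM with control siRNA and vehicle. Genes at such levels could hardly be at 0, so they do not show whether genes of low level are missed. Some other WNT pathway and target genes, named after their values were seen, were also at or near 0 over the 12 libraries. Counts were 0 for Nkd2, Dkk1 and Bambi, 4 for Sp5, 11 for Notum, 26 for Apcdd1 and 35 for Ascl2. Others that many further signals also raise were well above 0, with 26.0 to 65.7 CPM for Ccnd1, 62.5 to 74.2 CPM for Myc, 11.8 to 20.3 CPM for Cd44 and 11.7 to 15.1 CPM for Sox9 over the 12 libraries. Znrf3 and Rnf43, which canonical WNT signalling also commonly raises, had counts in every library, as given above. Whether that signalling is active in these cells was not tested.

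The 250 bases before the RefSeq start of Axin2 model NM_015732 (GRCm38.p6, plus strand, chr11:108920099-108920348) are shown as the promoter of the readout that gave no counts. The 5 motifs were not found in this window, which says only that these letters are absent from it.
Axin2, start of NM_015732: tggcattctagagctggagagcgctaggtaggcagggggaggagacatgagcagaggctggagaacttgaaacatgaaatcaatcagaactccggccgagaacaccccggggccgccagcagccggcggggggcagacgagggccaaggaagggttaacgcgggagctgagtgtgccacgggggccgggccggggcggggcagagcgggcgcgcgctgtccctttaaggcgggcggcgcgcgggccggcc

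Lef1 and Tcf7 encode TCF/LEF factors through which beta-catenin activates genes. Lef1 (gene identifier 16842, chromosome 3, 131110277 to 131224357) had 6, 22 and 13 counts with control siRNA and vehicle, 14, 8 and 6 with control siRNA and dDAVP, 15, 3 and 17 with TAZ siRNA and vehicle, and 19, 6 and 6 with TAZ siRNA and dDAVP. All 4 groups overlapped, and libraries of the same group differed several-fold. The estimates were -0.68 ± 0.63 for dDAVP with control siRNA (adjusted p = 0.520), 0.08 ± 0.63 for dDAVP with TAZ siRNA (0.964), -0.45 ± 0.61 for TAZ siRNA with vehicle (0.748) and 0.31 ± 0.65 for TAZ siRNA with dDAVP (0.825). For dDAVP with control siRNA the 95% interval of the Lef1 change ran from -2.003 to 0.64, so these counts leave its size and direction unsettled. Of its 9 transcript models, 2 had counts.

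Tcf7 (gene identifier 21414, chromosome 11, 52246527 to 52283383) measured 3.12, 3.16 and 2.22 CPM with control siRNA and vehicle and 2.27, 2.16 and 2.77 CPM with control siRNA and dDAVP. It measured 2.53, 2.55 and 2.78 CPM with TAZ siRNA and vehicle and 2.79, 2.93 and 2.36 CPM with TAZ siRNA and dDAVP. The groups overlapped in all 4 comparisons. The changes were -0.24 ± 0.15 for dDAVP with control siRNA (adjusted p = 0.327), 0.04 ± 0.15 for dDAVP with TAZ siRNA (0.913), -0.11 ± 0.15 for TAZ siRNA with vehicle (0.763) and 0.17 ± 0.15 for TAZ siRNA with dDAVP (0.545). Its counts were spread over 11 of its 12 transcript models, in shares that changed from library to library. The span of Tcf7 overlaps that of Skp1, a protein-coding gene, by 332 bases. Skp1 was not found by that symbol, so its level was not checked. The Tcf7 models outside the Skp1 span, NM_009331 and NM_001313981, had 5 and 59 counts over all libraries. The other Tcf7 counts lay on models that reach into that span. Whether reads of Skp1 are among them was not tested. The other 2 genes of the family were higher, with Tcf7l1 at 29.9 FPKM and Tcf7l2 at 23.5 FPKM with control siRNA and vehicle, where Tcf7 was at 0.296 ± 0.055 and Lef1 at 0.0660 ± 0.0471 FPKM.

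Among the 12 promoter windows only 1 held a motif, the window of an internal Lef1 start (GRCm38.p6, plus strand, 250 bases before the start at chr3:131156044-131156293). The capitals mark TCAAAG, which is CTTTGA read on the other strand, at -180 and -120 from the start. The transcript model nearest this start, XM_030252442, had 0 counts in all libraries, and a match is a description of letters.
Lef1, internal start: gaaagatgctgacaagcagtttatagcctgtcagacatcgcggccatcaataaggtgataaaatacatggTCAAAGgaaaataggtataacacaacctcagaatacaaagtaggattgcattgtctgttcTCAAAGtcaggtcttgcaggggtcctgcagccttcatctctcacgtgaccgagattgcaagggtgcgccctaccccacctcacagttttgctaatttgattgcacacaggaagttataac

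None of the 8 tested genes was called for a difference between the siRNAs in its response to dDAVP. For the difference of the responses, with TAZ siRNA minus with control siRNA, 0 of the 8 tested were called by edgeR and limma, and 0 had an unadjusted p under 0.05 in edgeR. DESeq2 gave an adjusted p to 3 of the 8 and called 0. Of all tested genes, 0.0314% were called, 0.0126% higher and 0.0188% lower. The value was 0.08 for Wnt7b (95% interval -0.04 to 0.20, adjusted p = 0.747), 0.09 for Wnt10a (-0.13 to 0.32, 0.857) and 0.27 for Wnt9b (-0.04 to 0.57, 0.657). It was 0.00 for Wnt4 (-0.19 to 0.19, 0.995), 0.10 for Znrf3 (-0.08 to 0.28, 0.798) and 0.33 for Rnf43 (-0.0035 to 0.67, 0.617). It was 0.28 for Tcf7 (-0.18 to 0.74, 0.778) and 0.76 for Lef1 (-1.12 to 2.64, 0.863). The Rnf43 value uses the summed counts, with those of NM_001363437 in the control vehicle group. Over 17 alternatives, NM_172448 alone among them, it ran from 0.08 to 0.47, with adjusted p-values of 0.386 to 0.939. A p that misses the threshold does not show that the responses are alike, and each interval gives the differences that these libraries allow.

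Across the 12 libraries, the log2 levels of Wnt7b and Wnt10a had a Pearson correlation of 0.879, the highest among the 28 pairs of the 8 tested genes, followed by Wnt4 and Rnf43 at 0.783 and Wnt9b and Rnf43 at 0.692. These are descriptions over 12 libraries that share the same 4 groups. The 3 tested genes nearest to Wnt7b were Lrrk1 (0.984), Smtn (0.982) and Ltbp3 (0.975), and those nearest to Wnt10a were Cxcl16 (0.967), Mapk11 (0.965) and S100a10 (0.960). Those nearest to Wnt4 were Arl8b (0.911), Usp38 (0.892) and 9130024F11Rik (0.885), and those nearest to Znrf3 were Trim37 (0.922), Stau1 (0.920) and Spg11 (0.919). For Rnf43 they were Nrde2 (0.945), Casd1 (0.937) and Kank1 (0.922). All Rnf43 correlations use its summed counts, which include those of NM_001363437 in control vehicle replicates 1 and 3. For the low genes they were LOC115486873 (0.872), Cbx3-ps8 (0.860) and Ptges3-ps (0.844) for Wnt9b, Atg16l1 (0.939), Gm13212 (0.862) and Nacc2 (0.848) for Tcf7, and Ctsk (0.846), Gm38485 (0.823) and Scamp2 (0.818) for Lef1.

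A list of 112 WNT pathway genes, ordered by role and holding the 10 genes, put these values beside the rest of the pathway. Of the 111 found, 86 had a count and 68 were tested. This list was also chosen with earlier results of these data known, so its shares are descriptions only. With control siRNA, dDAVP raised 7 and lowered 23 of the 68, with a median change of -0.09, where 9.72% of all tested genes were called higher and 9.48% lower. With all libraries, the lowered genes included 3 of 9 ligands tested, 1 of 2 ligand secretion genes and 6 of 13 receptors and coreceptors. They also included 2 of 4 R-spondin module genes and 6 of 18 signal transduction and destruction complex genes. The rest were 1 of 3 secreted and surface inhibitors, 3 of 15 nuclear factors and 1 of 4 further target genes. The 7 raised genes were 2 receptors and coreceptors, 3 signal transduction and destruction complex genes and 2 nuclear factors. Fzd4, a Frizzled receptor, rose most, from 8.85 to 10.7 CPM with vehicle to 20.1 to 23.1 CPM with dDAVP (1.08 ± 0.09, adjusted p = 7.4e-08). Trabd2b, a membrane metalloprotease that inactivates WNT ligands, fell from 2.27 to 2.66 CPM to 1.09 to 1.25 CPM (-1.05 ± 0.16, adjusted p = 0.000109). Ccnd1 (cyclin D1) fell by -0.54 ± 0.12 (adjusted p = 0.00618), Wnt7a by -0.46 ± 0.07 (adjusted p = 8.2e-05) and Fzd2 by -0.26 ± 0.04 (adjusted p = 5.7e-05).

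Ror1, Fzd8 and Wnt9a lost their calls in that comparison when some single libraries were left out. Ror1, a WNT receptor tyrosine kinase, rose by 0.79 ± 0.23 (adjusted p = 0.0193), with 0.1003 without control vehicle replicate 2, 0.0630 without 3, 0.0995 without control dDAVP replicate 1 and 0.0660 without 2 (0.00825 to 0.1003 over 12 alternatives). Fzd8 fell by -0.39 ± 0.12 (adjusted p = 0.0258), with 0.10005 without control vehicle replicate 1, 0.0595 without 3, 0.0676 without control dDAVP replicate 1 and 0.0906 without 2 (0.0165 to 0.10005). Wnt9a fell by -0.28 ± 0.09 (adjusted p = 0.0254), with 0.124 without control vehicle replicate 3, 0.0942 without control dDAVP replicate 1 and 0.0902 without 3 (0.00901 to 0.124). The 30 calls became 16 without control vehicle replicate 3, 19 without control dDAVP replicate 1, 19 without 2 and 18 without 3. The lowered genes became 15 without control vehicle replicate 1, 14 without 2 and 11 without 3, and 14, 14 and 11 without control dDAVP replicates 1, 2 and 3, where 5 to 8 were raised. Over all tested genes, 3058 calls became 2103 to 2685 when 1 library was left out.

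With TAZ siRNA, dDAVP raised 7 and lowered 5 of the 68, where 6.38% of all tested genes were called higher and 4.41% lower. Leaving out 1 library gave 4 to 7 raised and 3 to 7 lowered. Calls over all tested genes then ran from 1118 to 1752, against 1719. Fzd4 rose by 1.01 ± 0.09 (adjusted p = 3.0e-07), from 8.75 to 10.8 CPM to 18.4 to 20.4 CPM. Trabd2b fell by -1.11 ± 0.16 (adjusted p = 0.000140), Ccnd1 by -0.71 ± 0.12 (adjusted p = 0.00128) and Wnt7a by -0.38 ± 0.07 (adjusted p = 0.000937). Tle5, a short corepressor of the Groucho family, rose by 0.23 ± 0.03 (adjusted p = 8.0e-05). Ror1 rose by 1.04 ± 0.24 (adjusted p = 0.00805) and lost its call without TAZ siRNA dDAVP replicate 2 (0.0541, within 0.000903 to 0.0541). Fzd8 fell by -0.41 ± 0.11 (adjusted p = 0.0270) and lost its call without TAZ siRNA vehicle replicate 2 (0.0953) or 3 (0.0993) or TAZ siRNA dDAVP replicate 2 (0.0561) or 3 (0.101), and with the compared groups alone (0.0653), within 0.00428 to 0.101. Ctnnbip1, an inhibitor of the binding of beta-catenin to TCF factors, fell by -0.24 ± 0.06 (adjusted p = 0.0236) and lost its call without TAZ siRNA vehicle replicate 2 (0.0555) or 3 (0.0811) or TAZ siRNA dDAVP replicate 2 (0.0743) or 3 (0.0567), within 0.0112 to 0.0811. The difference of the 2 responses called 0 of the 68 by edgeR and limma, with 6 at an unadjusted p under 0.05, and DESeq2 called 1 (Tcf7l1).

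TAZ siRNA with vehicle raised 7 and lowered 5 of the 68, where 3.19% of all tested genes were called higher and 3.11% lower. Beside the 4 genes above, Fzd2 fell by -0.24 ± 0.04 (adjusted p = 0.000814) and kept its call in all alternatives run. Ccnd1 rose by 0.50 ± 0.12 (adjusted p = 0.0224), from 38.6, 44.3 and 39.8 CPM to 45.7, 65.7 and 62.4 CPM. It lost its call without control vehicle replicate 1 (0.0929) or 3 (0.0873) or TAZ siRNA vehicle replicate 2 (0.0738) or 3 (0.0886), and with the compared groups alone (0.0982), within 7.5e-05 to 0.0982. Cd44, a surface receptor for hyaluronan, rose by 0.45 ± 0.10 (adjusted p = 0.0152) and lost its call without control vehicle replicate 3 (0.0743) or TAZ siRNA vehicle replicate 2 (0.106), within 0.000925 to 0.106. The other named genes were Fzd7 (-0.22 ± 0.06), Tcf7l2 (-0.17 ± 0.04), Dvl1 (0.17 ± 0.04), Apc2 (0.14 ± 0.04) and Dvl3 (0.13 ± 0.03), with adjusted p-values of 0.00927 to 0.0372. Each of these 5 lost its call without TAZ siRNA vehicle replicate 3, with adjusted p-values of 0.102, 0.0676, 0.0556, 0.112 and 0.1002 in the same order. Without TAZ siRNA vehicle replicate 2 the values of Fzd7, Tcf7l2, Apc2 and Dvl3 were 0.119, 0.0620, 0.152 and 0.0898, and without control vehicle replicate 1 those of Fzd7, Apc2 and Dvl3 were 0.0809, 0.180 and 0.125. Without control vehicle replicate 2 those of Fzd7 and Tcf7l2 were 0.0894 and 0.0841, and without replicate 3 those of Fzd7 and Apc2 were 0.0654 and 0.0781. With the compared groups alone those of Apc2 and Dvl3 were 0.0715 and 0.0630. Without TAZ siRNA vehicle replicate 1 there were 7 raised and 10 lowered. The 12 calls became 5 without control vehicle replicate 1, 6 without 3, 3 without TAZ siRNA vehicle replicate 2 and 3 without 3. Calls over all tested genes fell from 1004 to 504, 578, 410 and 511 in the same order.

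TAZ siRNA with dDAVP raised 9 and lowered 1 of the 68, where 5.77% of all tested genes were called higher and 4.97% lower. Dvl3, a dishevelled protein that carries the receptor signal inward, rose by 0.22 ± 0.03 (adjusted p = 0.000319), and Apc2, a relative of APC, by 0.21 ± 0.04 (adjusted p = 0.00166). Both kept their calls in all alternatives run, as did Wnt7b and Wnt10a. The other called genes changed less than these. They were Lrp6 (-0.17 ± 0.05), Bcl9l (0.15 ± 0.04), Gsk3a (0.14 ± 0.04), Dvl1 (0.13 ± 0.04), Lrp5 (0.12 ± 0.03) and Tcf7l1 (0.11 ± 0.03), with adjusted p-values of 0.0121 to 0.0413. Each of these calls was lost when some single libraries were left out. Without control dDAVP replicate 1 the adjusted p-values were 0.109 for Lrp6, 0.186 for Gsk3a, 0.0814 for Dvl1 and 0.103 for Tcf7l1. Without replicate 2 they were 0.0727 for Bcl9l, 0.126 for Dvl1, 0.0556 for Lrp5 and 0.179 for Tcf7l1, and without replicate 3 they were 0.0662 for Lrp6, 0.0790 for Bcl9l, 0.137 for Gsk3a, 0.0697 for Dvl1, 0.0710 for Lrp5 and 0.0747 for Tcf7l1. Leaving out TAZ siRNA dDAVP libraries ended the calls of Lrp6 (0.0991 without replicate 1 and 0.125 without 3), Bcl9l (0.0708 without 2), Gsk3a (0.159 without 1 and 0.1198 without 3), Dvl1 (0.0947 without 1 and 0.0981 without 3), Lrp5 (0.0581 without 1 and 0.0587 without 2) and Tcf7l1 (0.102, 0.147 and 0.0646). With no low-count filter Gsk3a (0.0944), Dvl1 (0.0675) and Tcf7l1 (0.125) were not called, and with limma Gsk3a (0.0517) and Tcf7l1 (0.0523) were not. Tcf7l1 was also not called with RLE factors (0.0506), with the compared groups alone (0.0576) or with the replicate block (0.0590), and so kept its call in 1 of 12 alternatives, DESeq2. The 10 calls became 6 without control dDAVP replicate 1, 6 without 2, 4 without 3, 5 without TAZ siRNA dDAVP replicate 1 and 6 without 3. Over all tested genes, 1711 calls became 1049 to 1625 when 1 library was left out.

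**Figure D5:**
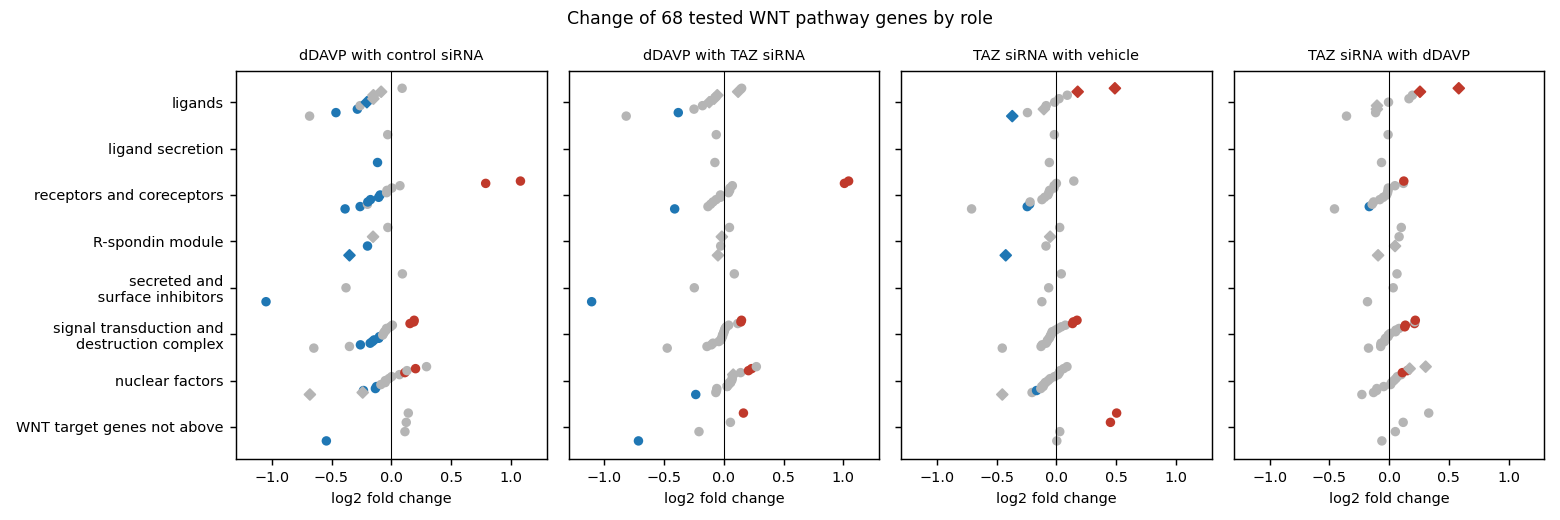
Log2 fold change (x axis) of the 68 tested WNT pathway genes in the 4 comparisons, in rows by role. Diamonds are the 8 tested genes of this report and circles the other genes, with red for called higher, blue for called lower and grey for not called. In the first panel, with all libraries, 23 points are blue and 7 red.

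The labelled cell type was compared with marker lists. All 12 principal cell markers had counts, at very unequal levels. Over all libraries Gata3 was at 165 to 236 CPM, Hsd11b2 at 126 to 164 CPM and Scnn1a at 88.9 to 141 CPM. Aqp3, Aqp4, Scnn1b, Fxyd4, Elf5 and Kcnj1 reached at most 1.20 CPM in any library. The summed level of the 12 in control siRNA libraries was 500.2 to 540 CPM under vehicle and 532 to 579 CPM under dDAVP. In TAZ siRNA libraries it was 459 to 508 CPM under vehicle and 508 to 537 CPM under dDAVP. Of 9 intercalated cell markers, Foxi1, Slc26a4 and Kit were at 0. The highest were Atp6v1b1 at 80.6 to 104.8 CPM, Car2 at 54.5 to 88.5 CPM and Aqp6 at 8.87 to 38.0 CPM over all libraries. The intercalated sums, over the groups in the order just given, spanned 163 to 175, 220.3 to 232, 147 to 164 and 189 to 207 CPM. Of 9 markers of other nephron segments, Slc12a1 and Nphs1 were among those at 0, and the sums were 272 to 284, 208 to 225, 249.9 to 263 and 205 to 216 CPM, nearly all from Lrp2 and Podxl. Of 11 fibroblast, endothelial and immune markers, Dcn, Lum, Col3a1, Kdr and Adgre1 were at 0, and the sums lay between 4.78 and 6.59 CPM in all 12 libraries. The intercalated sums were higher and the other nephron sums lower with dDAVP under both siRNAs. With TAZ siRNA the intercalated sums were lower than with control siRNA under dDAVP, and the other nephron sums lower under vehicle, without overlap. The part of these sums in the changes of the WNT genes was not tested. In bulk RNA, fewer cells that use a gene and less RNA per cell cannot be told apart.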

How the data were processed

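RNA of 12 libraries (4 groups of 3) was sequenced, and 2 TruSeq kits, only 1 of them stranded, are named in the labels' protocols. The authors deposited estimated counts for genes and transcripts, as unnormalised whole numbers, and FPKM, per the file headers. Bowtie 0.12.2 and the builds mm8 and mm10 appear, without roles, in the submitters' processing notes, and no source used here gives the counting tool. Gene counts equalled the transcript sums in all but 12 of 549324 values. For transcript counts of 2 to 20, FPKM times length gave no whole number (by over 0.05) in 85.6% of 157342 values, so the counts are estimates rounded up, and how they are divided between transcript models of a gene bears on low genes. The design had assumed whole counts or a normalised unit, and the count test was kept. A further 24 per-sample columns went unused.

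The counts were tested with edgeR 4.0.16 under R 4.3.3 (TMM factors 0.988 to 1.01, filterByExpr with a minimum count of 10, robust quasi-likelihood F test, 1 mean per group, all 12 libraries). Of 24656 genes with a count, 15932 were tested, which hold 99.98% of all counts, with a biological coefficient of variation of 5.11%. Each SE is the log2 fold change divided by the square root of F. DESeq2 1.42.0 and limma 3.58.1 were alternatives, with RLE factors, no low-count filter, a replicate block, the compared groups alone and each library left out. The test was tested on simulated data. The simulated counts had the same spread for all genes and no transcript models, so errors in dividing counts between models were not covered. No 2 libraries of a group were as alike as sampling alone would make them (chi-square over degrees of freedom, 4.25 to 13.5). Library totals were 45095331 to 61725339 counts, which leave Lef1 with 3 to 22 counts per library, and floors cover counting error only.

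The members and gene lists were chosen with earlier results of these data known. The genes named are the 10 members, Wwtr1, Aqp2, up to 8 called genes of the WNT list with the largest change in each comparison, and the 3 genes most correlated with each tested member. List genes whose levels alone are given, and overlapping genes, were named after their values were seen. The value of 1 marker gene is not reported here.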

Additional observations from a re-analysis of the deposited data

How the results depend on the processing

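The calls of Wnt10a with TAZ siRNA in both treatments, of Wnt7b for TAZ siRNA with dDAVP and of Wnt7b for dDAVP with control siRNA held under all alternatives run. Those of Wnt9b, Rnf43 and Wnt7b for TAZ siRNA with vehicle, and of Rnf43 for dDAVP with control siRNA, did not. Same-numbered libraries of different groups were at most weakly alike in their deviations from the group means. The 18 correlations lay between -0.0430 and 0.0799, with 0 over 0.1. Of 12 libraries, 7 correlated best with a library of their own number. No chance level was computed for that count, so pairing by number was not settled. With the replicate number as a block, Wnt9b for TAZ siRNA with vehicle was -0.37 (adjusted p = 0.0535) and Tcf7l1 for TAZ siRNA with dDAVP 0.11 (adjusted p = 0.0590), both no longer called, and no other named call was lost. The 10 genes gave 1 call for dDAVP with TAZ siRNA with DESeq2 and 1 with no low-count filter, against 0. The difference of responses gave 87 genes with DESeq2 and 12 with no filter, against 5, and 1 gene of the WNT list with DESeq2, against 0. With no filter, the split of all genes for dDAVP with TAZ siRNA was 809 higher and 854 lower, against 1016 and 703, and the Wnt4 difference was -0.0174 (0.00354 with the filter). The cause was not tested.

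Leaving out 1 library at a time, which leaves fewer libraries to estimate the spread, the genes called were 2103 to 2685 for dDAVP with control siRNA (3058 with all libraries), 1118 (without TAZ siRNA vehicle replicate 2) to 1752 for dDAVP with TAZ siRNA (1719), 410 to 1435 for TAZ siRNA with vehicle (1004), 1049 to 1625 for TAZ siRNA with dDAVP (1711) and 3 to 16 for the difference. For TAZ siRNA with vehicle, the count was 410 without TAZ siRNA vehicle replicate 2, 511 without 3, 504 without control vehicle replicate 1 and 578 without 3. The 1435 for TAZ siRNA with vehicle and the 16 for the difference came without TAZ siRNA vehicle replicate 1. For TAZ siRNA with dDAVP, it was 1114 without control dDAVP replicate 2, 1049 without 3, 1054 without TAZ siRNA dDAVP replicate 1 and 1110 without 3. The 10 genes gave 1 to 2, 0 to 1, 1 to 3, 2 to 2 and 0 to 0 calls in the same order. The WNT list gave 16 to 22, 8 to 13, 3 to 17, 4 to 9 and 0 to 0. Some uncalled values changed sign. For dDAVP with TAZ siRNA the ranges were -0.147 to 0.0074 for Wnt10a, -0.075 to 0.048 for Rnf43, -0.54 to 0.43 for Lef1, -0.025 to 0.12 for Tcf7 and -0.11 to 0.011 for Wwtr1. For TAZ siRNA with vehicle the range was -0.84 to 0.19 for Lef1. For TAZ siRNA with dDAVP they were -0.21 to 0.0036 for Wnt9b, -0.013 to 0.10 for Znrf3, -0.16 to 0.036 for Rnf43 and -0.31 to 0.70 for Lef1. For the difference the range was -0.057 to 0.060 for Wnt4. The low counts of Lef1 limit what can be said of it.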
